A study of Homo sapiens with 10 samples.

Results

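Tumour cells carry surface and secreted ligands that either restrain immune cells or call them in, and 10 genes for such ligands were followed here in A375 cells. They were taken by name: CD274, PDCD1LG2, CD276, CD47, LGALS9, PVR, NECTIN2, MICA, MICB and ULBP2. Each of the 10 had 1 probe set among the 17492 genes named on the array, and each was described across all 10 arrays. A375 is a human skin melanoma line with mutant BRAF. The doxycycline group holds 5 arrays of cells kept for 4 days in doxycycline (2 µg/ml), and the control group holds 5 arrays of cells kept without it. All were A375 cells grown in RPMI1640 with glutamine and serum. Omomyc, a modified MYC dimerisation domain that blocks transcription driven by MYC, appears in the title of the series, while the labels give neither its promoter nor the number of clones. Whether the control cells carried the construct is also not given in the labels, and none of the 10 arrays is labelled as doxycycline without Omomyc, so an effect of doxycycline alone cannot be told apart from one of Omomyc. The labels call the arrays of a group biological replicas but mention no separate cultures, so every p-value reflects only how far these samples spread, and that spread may be technical.

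The ligands fall into groups by the receptor they meet. CD274 (PD-L1) and PDCD1LG2 (PD-L2) bind PD-1 on T cells and dampen their response, CD276 (B7-H3) is a related molecule whose receptor is not settled, CD47 binds SIRPA on macrophages and holds back engulfment, and galectin 9, the product of LGALS9, binds TIM-3 among other partners. PVR (CD155) and NECTIN2 (CD112) are adhesion molecules that share the activating receptor CD226 and the inhibitory receptor TIGIT on natural killer and T cells. MICA, MICB and ULBP2 are stress-inducible ligands of NKG2D, an activating receptor of natural killer cells and cytotoxic T cells. MYC has been reported to bind the promoters of CD274 and CD47 in tumour cells, which is given here as background and not as a cause of these data.

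With doxycycline, 4 of the 10 genes rose (CD274, PDCD1LG2, CD276 and NECTIN2), 1 fell (PVR) and 5 did not pass the test (CD47, LGALS9, MICA, MICB and ULBP2). Calls were made with limma at an adjusted p under 0.05 over all 18569 probe sets, of which 38.1% passed, 20.9% higher and 17.2% lower. The fall of PVR was by far the widest move, 4.97-fold, and the 4 rises were 1.53-fold to 1.84-fold. The median log2 fold change of the 10 genes was 0.21, against 0.04 over all probe sets. PVR alone among the 10 passed the test with a change of at least 2-fold, which 6.47% of all probe sets did. In bulk RNA, fewer cells with a transcript and less of it in each cell cannot be told apart, and after RMA a fold change is set against the rest of the array.

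**Figure D1:**
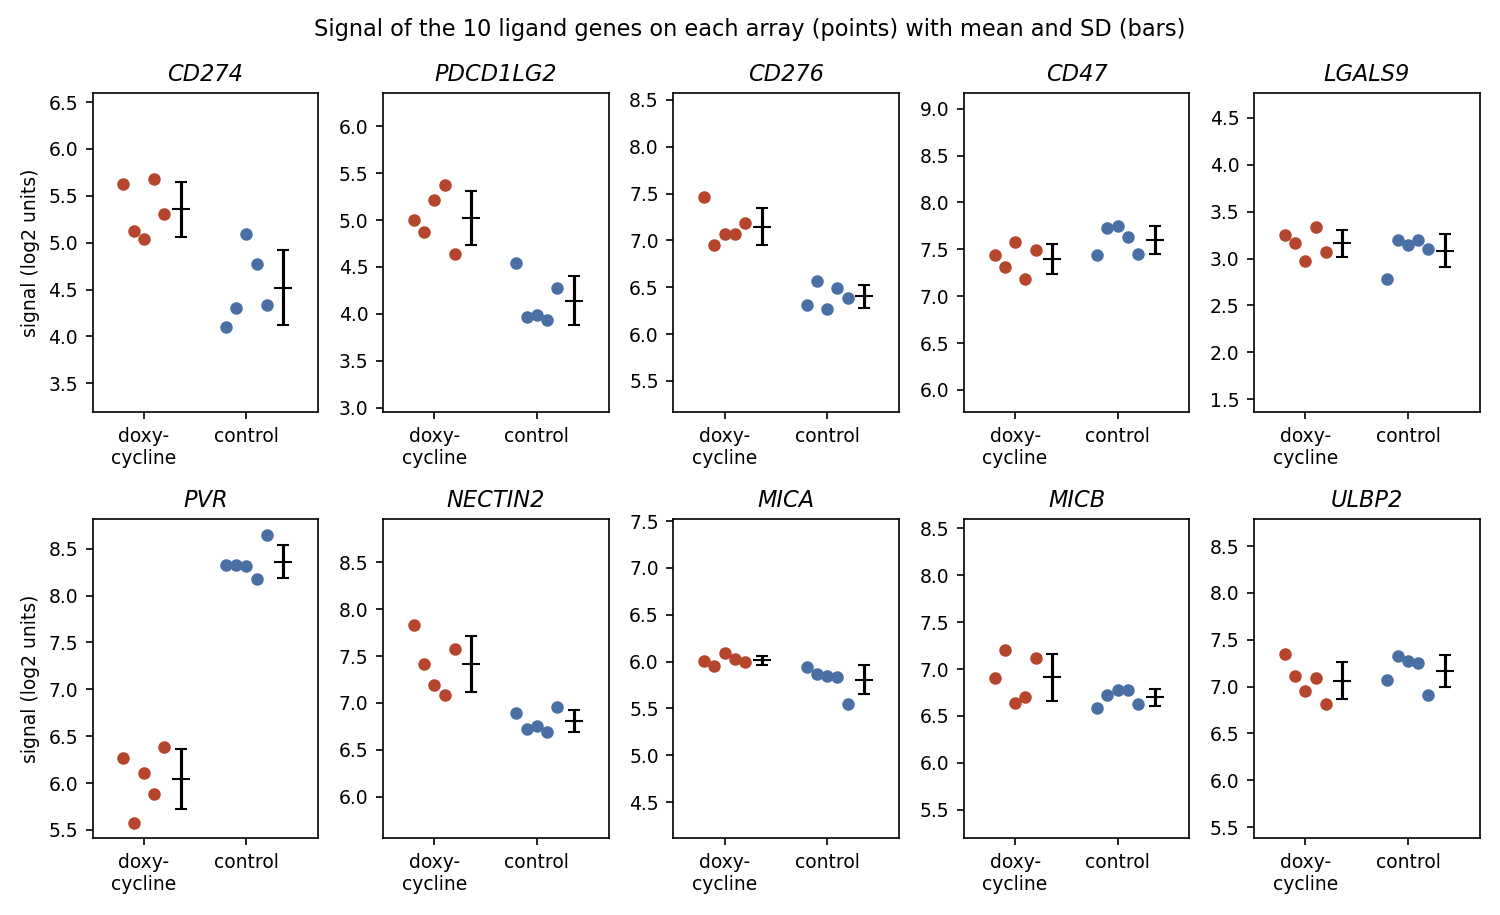
Log2 signal of each ligand gene (vertical axis, log2 units, the same span in every panel) on the 5 doxycycline arrays (red, left) and the 5 control arrays (blue, right), with black bars for mean and SD. PVR sits between 5.57 and 6.38 with doxycycline and between 8.17 and 8.65 in control. The points of CD274, CD47, LGALS9, MICB and ULBP2 overlap between the groups.

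Between pairs of arrays the correlation across probe sets was 0.990 to 0.996 within doxycycline, 0.993 to 0.997 within control and 0.970 to 0.976 between groups, and array medians lay between 5.02 and 5.10 log2 units. Of 10 measured melanoma lineage genes, SOX10, S100B, MITF, S100A1, PRAME and CSPG4 had signal above the 25th percentile of all probe sets (2.85 log2 units), whereas the pigment genes MLANA, PMEL, TYR and TYRP1 lay below it. Of these 10, 5 rose and 1 fell, with log2 fold changes of 1.21 for MITF, the lineage's transcription factor, and -1.40 for CSPG4, a melanoma surface proteoglycan, and their summed log2 signal was 57.3 to 58.6 with doxycycline and 56.1 to 57.3 in control. Leukocyte markers lay below it in 11 of 21 cases, PTPRC, the pan-leukocyte gene, among them at 2.07 ± 0.30 log2 units with doxycycline and 2.15 ± 0.22 in control (SD, n = 5 each). Of the 21, 5 rose (LYZ, CD14, CD79A, ITGAX and NCAM1), where 20.9% of all probe sets did, and the summed log2 signal of the list was 72.3 to 76.9 with doxycycline and 68.5 to 71.4 in control. Fibroblast markers rose in 5 of 7 cases, with summed log2 signal of 32.9 to 33.5 with doxycycline and 27.8 to 28.6 in control. Keratinocyte and epithelial markers had 1 of 8 higher and 1 lower, with sums of 30.6 to 31.4 and 30.9 to 32.2, and endothelial markers had 1 of 6 higher, with sums of 19.0 to 20.7 and 17.3 to 18.8, doxycycline first in both. The part of these markers in the results on the ligands was not tested.

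Both ligands of PD-1 rose. Signal of CD274 was 5.63, 5.12, 5.03, 5.68 and 5.30 log2 units on doxycycline arrays 1 to 5, against 4.10, 4.30, 5.09, 4.77 and 4.33 on control arrays 1 to 5. A single control array, number 3, reached above the lowest doxycycline array, so the groups overlapped at 1 point. The means were 5.36 ± 0.29 with doxycycline and 4.52 ± 0.40 in control (SD, n = 5 each), a log2 fold change of 0.84 ± 0.18 (SE) with an adjusted p of 0.00162 by limma. CD274 lay near the middle of the array's signal range, at the 48.7th percentile.

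PDCD1LG2, the second PD-1 ligand, had 5.00, 4.88, 5.22, 5.37 and 4.64 log2 units with doxycycline, against 4.54, 3.97, 3.98, 3.93 and 4.28 in control. Every doxycycline array was above every control array, which held higher for 14.9% and lower for 13.6% of all probe sets. The log2 fold change was 0.88 ± 0.15 (limma adjusted p = 1.84e-04). In a direct test of unequal change, the fold changes of CD274 and PDCD1LG2 differed by -0.05 log2 units, with an exact two-sided permutation p of 0.905 (adjusted p = 0.921 over 6 pairs). That test compares changes and not levels, and its p does not show that the 2 genes changed alike.

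The letters upstream of CD274 are shown because its window was searched for elements of interferon-driven transcription. RefSeq promoter windows for GRCh38.p14, 250 bases before to 50 bases after the start of the gene, were at hand for 9 of the 10 genes. Capitals mark every match, on either strand, to the interferon response element (GAAA, 2 bases of any kind, GAAA), the E-box CACGTG that MYC and MAX bind, the GC box GGGCGG, the CCAAT box CCAAT or the inverted heat shock pair GAANNTTC. The window of CD274 (chr9:5450292-5450591, plus strand) reads as follows.
CD274: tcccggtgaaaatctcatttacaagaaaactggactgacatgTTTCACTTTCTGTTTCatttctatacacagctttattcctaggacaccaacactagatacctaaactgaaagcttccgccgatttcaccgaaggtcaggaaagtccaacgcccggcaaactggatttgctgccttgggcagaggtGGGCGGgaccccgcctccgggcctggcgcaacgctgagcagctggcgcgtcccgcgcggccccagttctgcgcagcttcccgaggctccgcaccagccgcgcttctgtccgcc
It held 2 overlapping reverse-strand matches to the interferon element, with first bases at -208 and -202 from the start, and 1 GC box at -63. Of all 35116 windows in the table, 3.57% held the interferon element and 45.0% the GC box. Among the other member windows only that of LGALS9, which did not pass the expression test, held the interferon element. The E-box was in 7.26% of all windows and in none of the 10 windows of the 9 genes. A match is a run of letters, and binding was not measured.

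CD276, the B7 relative, rose as well. Signal was 7.47, 6.95, 7.07, 7.07 and 7.19 log2 units on the doxycycline arrays, against 6.31, 6.57, 6.27, 6.49 and 6.39 on the control arrays. The lowest doxycycline value, 6.95, was above the highest control value, 6.57. The log2 fold change was 0.74 ± 0.10 (limma adjusted p = 3.44e-05). The fold change of CD274 minus that of CD276 was 0.09 (exact permutation p = 0.659, adjusted p = 0.921 over 6 pairs).

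CD47 and LGALS9 did not pass the test. For CD47, the ligand that macrophages read, signal was 7.44, 7.31, 7.58, 7.18 and 7.50 log2 units with doxycycline, against 7.44, 7.73, 7.75, 7.63 and 7.45 in control. The ranges overlapped, with doxycycline arrays 2 and 4 below every control array. The log2 fold change was -0.20 with a 95% interval of -0.41 to 0.01 (limma adjusted p = 0.139), which leaves room for a fall of up to that size. LGALS9 was dim, with 3.26, 3.17, 2.97, 3.34 and 3.07 log2 units with doxycycline, against 2.78, 3.20, 3.15, 3.20 and 3.10 in control. Its log2 fold change was 0.08, with an interval of -0.14 to 0.29 (limma adjusted p = 0.609), and its mean signal stood at the 29.1th percentile. Low probe signal compresses fold changes. LGALS9 has a near copy, LGALS9B, which also did not pass (log2 fold change 0.32, limma adjusted p = 0.0780), and shared hybridisation was not tested.

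**Figure D2:**
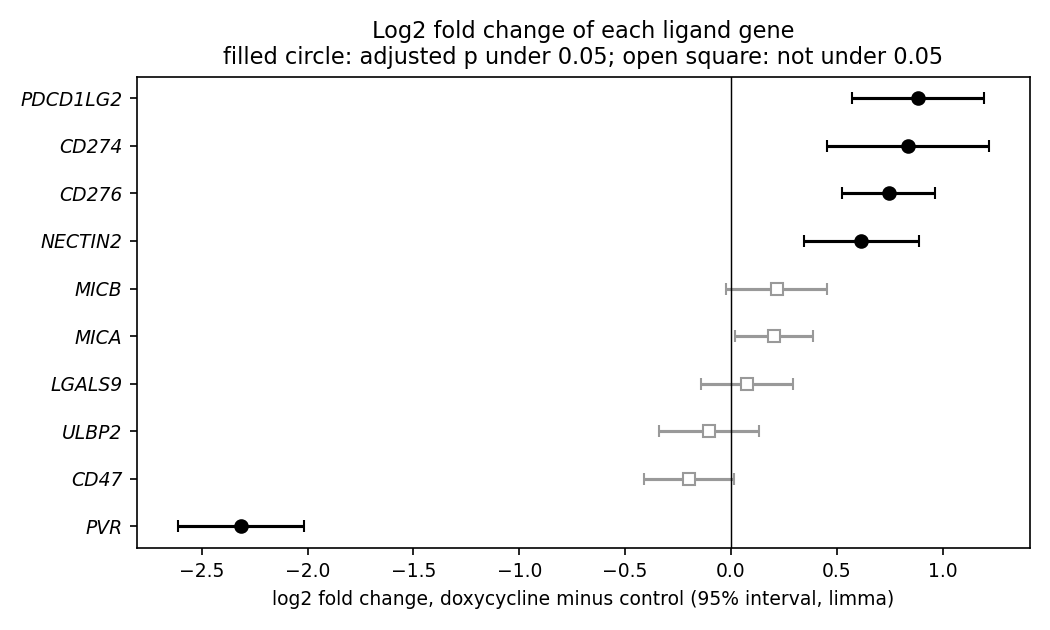
Log2 fold change of doxycycline minus control for each ligand gene (horizontal axis) with its 95% limma interval, ordered from high to low. The 4 genes that rose lie between 0.62 and 0.88, PVR lies at -2.31, and the intervals of the 5 open squares stay between -0.41 and 0.45.

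PVR and NECTIN2, which share receptors and lie near each other on chromosome 19, moved in opposite directions. PVR signal was 6.27, 5.57, 6.11, 5.89 and 6.38 log2 units on doxycycline arrays 1 to 5, against 8.33, 8.33, 8.32, 8.17 and 8.65 on control arrays 1 to 5. The highest doxycycline value was 6.38 and the lowest control value 8.17. PVR averaged 6.04 ± 0.32 with doxycycline and 8.36 ± 0.17 in control (SD, n = 5 each), and its log2 fold change of -2.31 ± 0.14 had a limma adjusted p of 6.30e-09. By that value PVR ranked 59th from the lowest among 18569 probe sets.

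NECTIN2 gave 7.83, 7.41, 7.19, 7.08 and 7.58 log2 units with doxycycline, against 6.89, 6.72, 6.75, 6.68 and 6.96 in control. All 5 doxycycline arrays were above all 5 control arrays, with the narrowest gap between doxycycline array 4 and control array 5. The mean was 7.42 ± 0.30 with doxycycline and 6.80 ± 0.12 in control (SD, n = 5 each), a log2 fold change of 0.62 ± 0.13 (limma adjusted p = 0.00115). The changes of PVR and NECTIN2 differed by -2.93 log2 units. That difference had an exact two-sided permutation p of 0.00794, the smallest that 5 against 5 arrays can give, and an adjusted p of 0.0476 over 6 pairs, and the within-array difference of the 2 genes did not overlap between groups.

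The promoter windows of this pair are shown because the genes are paralogues that moved apart. The window of PVR is chr19:44643660-44643959 and that of NECTIN2 is chr19:44846047-44846346, both on the plus strand of GRCh38.p14, with the same capitals as above.
PVR: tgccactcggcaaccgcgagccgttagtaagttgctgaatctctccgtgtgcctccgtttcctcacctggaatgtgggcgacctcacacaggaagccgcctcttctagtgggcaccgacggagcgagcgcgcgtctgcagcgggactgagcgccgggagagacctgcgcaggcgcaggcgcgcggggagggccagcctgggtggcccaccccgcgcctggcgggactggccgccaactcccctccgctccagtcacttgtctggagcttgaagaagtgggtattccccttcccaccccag
NECTIN2: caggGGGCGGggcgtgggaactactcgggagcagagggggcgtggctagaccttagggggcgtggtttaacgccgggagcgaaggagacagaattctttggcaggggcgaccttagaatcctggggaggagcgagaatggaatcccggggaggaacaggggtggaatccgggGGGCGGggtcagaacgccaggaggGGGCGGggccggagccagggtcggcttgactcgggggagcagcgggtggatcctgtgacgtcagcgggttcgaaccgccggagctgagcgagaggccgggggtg
PVR held no match to any of the 5 motifs in this window, and NECTIN2 held 3 GC boxes, at -246, -78 and -54 from the start. GC content was 67.3% for PVR and 68.3% for NECTIN2. The absence of a match says only that these letters are not in this window.

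None of the 3 NKG2D ligands passed the test. MICA signal was 6.002, 5.95, 6.09, 6.03 and 5.99 log2 units with doxycycline, against 5.95, 5.87, 5.84, 5.83 and 5.55 in control. The groups just failed to overlap, with a lowest doxycycline value of 5.953 and a highest control value of 5.948, and control array 5 stood below the other control arrays. The log2 fold change was 0.20, with a 95% interval of 0.02 to 0.39 before adjustment, and the limma adjusted p was 0.0775. The call depended on the setting, since MICA passed after median centring (adjusted p = 0.0499), after quantile normalization (adjusted p = 0.0330) and when dim probe sets under the median were left out (adjusted p = 0.0368), all by limma.

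MICB, a close paralogue, had 6.91, 7.21, 6.64, 6.70 and 7.12 log2 units with doxycycline, against 6.58, 6.72, 6.78, 6.78 and 6.63 in control. Doxycycline arrays 1, 2 and 5 were above all control arrays, and arrays 3 and 4 were within the control range. The log2 fold change was 0.22, with an interval of -0.02 to 0.45 (limma adjusted p = 0.150). ULBP2 had 7.35, 7.11, 6.95, 7.09 and 6.81 log2 units with doxycycline, against 7.08, 7.32, 7.27, 7.26 and 6.91 in control. Here the groups overlapped, and the log2 fold change of -0.10 had an interval of -0.34 to 0.13 (limma adjusted p = 0.520).

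Changes of the NKG2D ligands were also set against each other. MICA and MICB differed by -0.01 log2 units in their fold changes (exact permutation p = 0.921, adjusted p = 0.921 over 6 pairs). MICA minus ULBP2 came to 0.31 (exact permutation p = 0.0317, adjusted p = 0.0952) and MICB minus ULBP2 to 0.32 (exact permutation p = 0.0556, adjusted p = 0.111), neither of which passed. MICA and MICB are close paralogues and highly variable between people, and shared hybridisation of their probe sets was not tested. Their promoter windows, on the plus strand of GRCh38.p14 at chr6:31403345-31403644 for MICA and chr6:31497895-31498194 for MICB, show how alike they are.
MICA: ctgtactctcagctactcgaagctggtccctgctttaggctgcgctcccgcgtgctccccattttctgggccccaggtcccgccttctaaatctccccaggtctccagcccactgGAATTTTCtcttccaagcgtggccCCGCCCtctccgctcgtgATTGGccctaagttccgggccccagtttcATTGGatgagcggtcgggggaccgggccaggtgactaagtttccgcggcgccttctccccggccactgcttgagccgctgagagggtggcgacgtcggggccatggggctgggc
MICB: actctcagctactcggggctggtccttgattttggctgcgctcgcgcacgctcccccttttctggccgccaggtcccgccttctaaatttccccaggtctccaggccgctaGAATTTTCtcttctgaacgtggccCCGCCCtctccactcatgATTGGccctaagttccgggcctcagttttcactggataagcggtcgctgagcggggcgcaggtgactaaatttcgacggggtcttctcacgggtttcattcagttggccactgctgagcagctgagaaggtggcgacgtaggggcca
In a pairwise alignment 246 of 284 aligned bases were identical, or 86.6%. Both windows held the inverted heat shock pair, which 6.77% of all windows held, at -135 from the start in MICA and at -139 in MICB. Each also held a GC box, and MICA held 2 CCAAT boxes against 1 in MICB, a box found in 34.6% of all windows.

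The families to which the 10 genes belong did not move as blocks. Counts in each family and list below are to be read against all probe sets, of which 20.9% rose and 17.2% fell. Of 10 measured B7 family ligands 4 rose and 1 fell. Besides the 3 genes already described, VSIR (VISTA), an inhibitory ligand, had 6.34 ± 0.10 log2 units with doxycycline and 4.88 ± 0.44 in control (SD, n = 5 each), a log2 fold change of 1.47 ± 0.16 (limma adjusted p = 4.34e-06). NCR3LG1 (B7-H6), which activates natural killer cells through NKp30, fell to 4.78 ± 0.38 with doxycycline, against 6.47 ± 0.18 in control, a log2 fold change of -1.69 ± 0.16 (limma adjusted p = 5.40e-07). The remaining 5 (CD80, CD86, HHLA2, ICOSLG and VTCN1) did not pass, and all but ICOSLG lay below the 25th percentile of signal.

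Among 9 measured nectins and nectin-like molecules 5 rose and 1 fell, PVR. CADM1, whose partner CRTAM is carried by activated natural killer and T cells, averaged 9.10 ± 0.19 log2 units with doxycycline and 8.07 ± 0.06 in control (SD, n = 5 each), a log2 fold change of 1.03 ± 0.09. CADM4 (0.89 ± 0.07), CADM3 (0.88 ± 0.16) and NECTIN3, an adhesion partner of PVR and NECTIN2 (0.62 ± 0.07), rose as well, with limma adjusted p values of at most 4.37e-04. NECTIN1 (-0.24, adjusted p = 0.125), NECTIN4 (-0.27, adjusted p = 0.0509) and CRTAM itself (0.04, adjusted p = 0.794) did not pass. The median of the 9 was 0.62, against 0.04 over all probe sets.

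Of all 8 NKG2D ligand genes none rose and 2 fell. ULBP3 averaged 5.17 ± 0.42 log2 units with doxycycline and 6.02 ± 0.22 in control (SD, n = 5 each), a log2 fold change of -0.84 ± 0.17 (limma adjusted p = 0.00114). RAET1L, which encodes ULBP6, had 5.53 ± 0.09 with doxycycline and 5.90 ± 0.14 in control, a log2 fold change of -0.38 ± 0.09 (adjusted p = 0.00305). RAET1G, RAET1E and ULBP1 had log2 fold changes of -0.04, -0.04 and 0.03 and did not pass. The ULBP and RAET1 genes are related in sequence, and shared hybridisation was not tested for them either. In the galectin family 1 of 12 rose, LGALS1 (0.32 ± 0.07, limma adjusted p = 0.00269), and 1 fell, LGALS3, a ligand of LAG-3 among other partners (-0.62 ± 0.13, limma adjusted p = 0.00131).

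Other inhibitory ligands and enzymes rose in 5 of 15 cases and fell in 1, where 20.9% of all probe sets rose and 17.2% fell. CEACAM1, which restrains T and natural killer cells by binding itself on the opposite cell, averaged 9.98 ± 0.10 log2 units with doxycycline and 7.59 ± 0.20 in control (SD, n = 5 each), a 5.23-fold rise (limma adjusted p = 1.94e-10). CD200, which meets an inhibitory receptor on myeloid cells (1.12 ± 0.09), CD24, a ligand of Siglec-10 (0.92 ± 0.15), the cytokine TGFB1 (0.67 ± 0.09) and the prostaglandin enzyme PTGS2 (0.34 ± 0.11) followed. PTGS2 was dim, at 2.61 log2 units with doxycycline and 2.27 in control, and its groups overlapped. The gene that fell was NT5E (CD73), which makes adenosine outside the cell (-0.78 ± 0.07, limma adjusted p = 6.24e-07).

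Other activating and co-stimulatory ligands, with death receptors among them, rose in 7 of 18 cases and fell in 1. The shares over all probe sets were 20.9% higher and 17.2% lower. CLEC2B, a ligand of NKp80 on natural killer cells, averaged 8.29 ± 0.11 log2 units with doxycycline and 7.45 ± 0.26 in control (SD, n = 5 each), a log2 fold change of 0.84 ± 0.12. TNFSF9, the ligand of 4-1BB (0.72 ± 0.13), the adhesion molecule ICAM1 (0.50 ± 0.09) and CD70, the ligand of CD27 (0.39 ± 0.12), also rose, with limma adjusted p values of at most 0.0143. TNFRSF10A, a receptor for TRAIL, fell (-0.98 ± 0.14, limma adjusted p = 3.81e-05).

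Genes that act on the ligands after transcription were measured too. Of 15 proteases, inhibitors and partners linked to the shedding of MICA, MICB, ULBP2 and related proteins, 9 rose and 3 fell. Over all probe sets 20.9% rose and 17.2% fell. The median log2 fold change of the 15 was 0.58, against 0.04 over all probe sets. ADAM12 (1.45 ± 0.10), MMP13 (1.13 ± 0.12), the membrane protease MMP14 (1.07 ± 0.09) and TIMP1, a protease inhibitor (0.95 ± 0.09), rose most. TIMP3, which inhibits ADAM17 (-1.51 ± 0.08), ADAM15 (-1.37 ± 0.10) and the disulfide isomerase PDIA6 (-0.31 ± 0.07) fell. ADAM17, a sheddase of several of these ligands and named outside the rule for naming genes after its value was seen, rose by 0.66 ± 0.09 (limma adjusted p = 3.97e-05). ADAM10, on the same list and also named after its value was seen, did not pass (0.20, limma adjusted p = 0.0621), and its groups overlapped. Surface or shed protein was not measured.

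**Figure D3:**
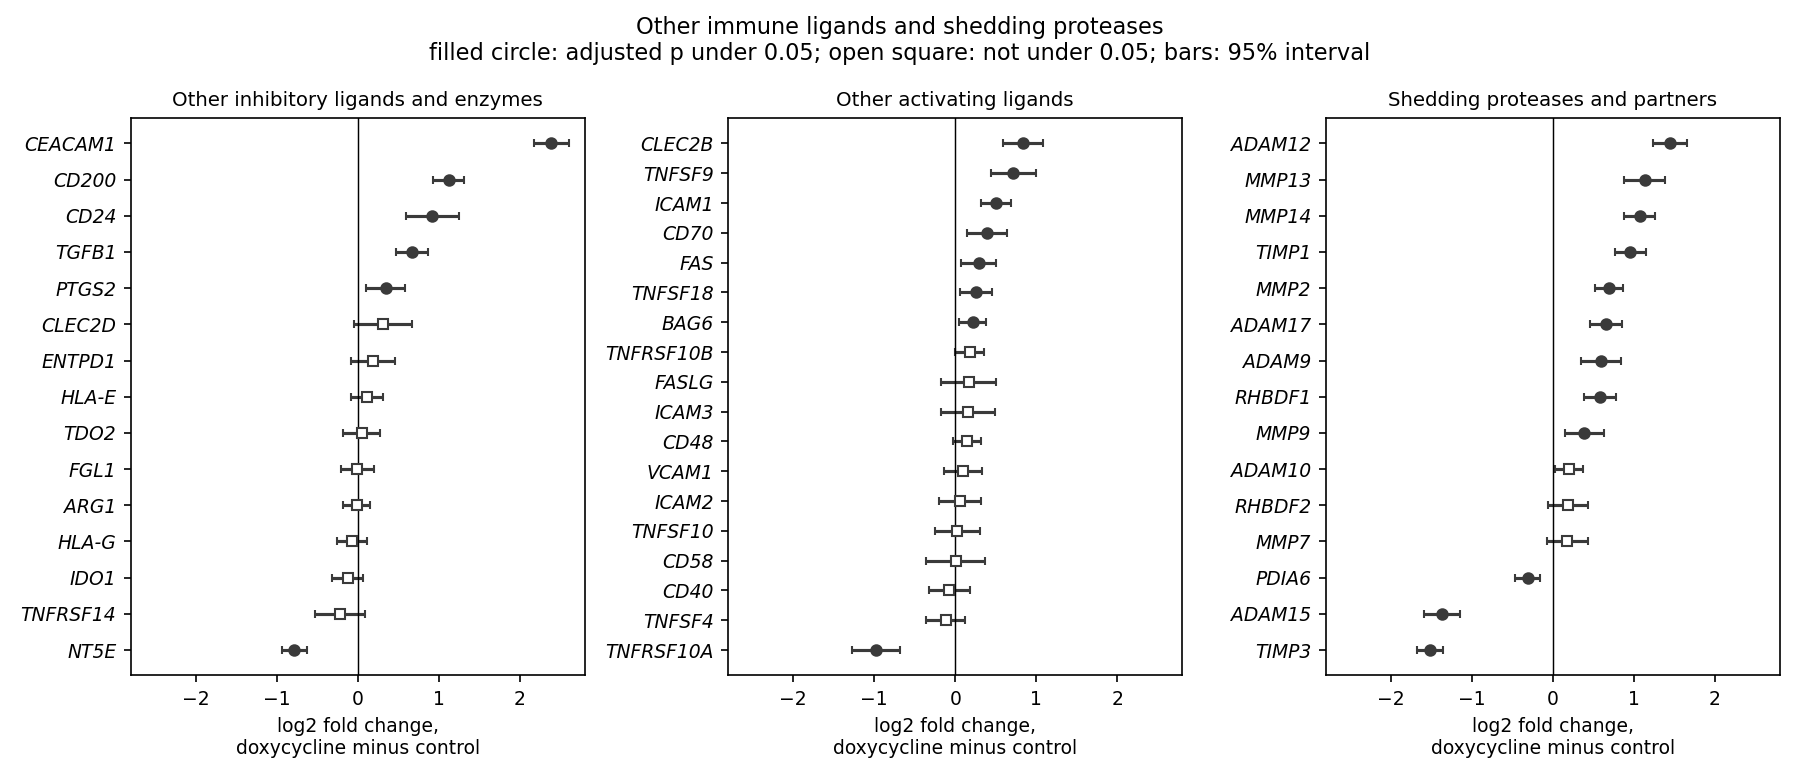
Log2 fold change of doxycycline minus control with 95% limma intervals (horizontal axes) for other inhibitory ligands and enzymes, other activating ligands, and proteases and partners of ligand shedding. CEACAM1 at 2.39 is the highest point, and TIMP3 at -1.51 the lowest.

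Regulators of CD274 gave mixed changes. In interferon-gamma signalling, which induces CD274 in many cells, 5 of 12 measured genes rose and 2 fell. The feedback inhibitor SOCS3 (1.00 ± 0.13), IRF9, the DNA-binding subunit of an interferon-activated complex (0.82 ± 0.08), STAT3 (0.80 ± 0.07) and JAK1 (0.37 ± 0.07) rose most, while the kinase JAK2 (-0.54 ± 0.09) and the phosphatase PTPN2 (-0.39 ± 0.13) fell, with limma adjusted p values of at most 0.0303. IRF1, the factor that carries the interferon-gamma signal to CD274, was looked up after its value was seen and had a log2 fold change of 0.06, with an interval of -0.13 to 0.25 (limma adjusted p = 0.633). Of 14 genes for the stability and trafficking of PD-L1 protein, 3 rose (FBXO38, CMTM4 and USP22) and 2 fell (ZDHHC9 and STUB1), all by 0.40 log2 units or less. CMTM6, which shields PD-L1 from breakdown and was also looked up afterwards, had a log2 fold change of 0.11 (limma adjusted p = 0.291).

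For CD47, 4 of 8 listed genes rose and none fell. Those that rose were QPCT, a glutaminyl cyclase (0.89 ± 0.08), SREBF1 (0.69 ± 0.11), ATP6V1A (0.58 ± 0.08) and HIF1A (0.34 ± 0.09), with limma adjusted p values of at most 0.00504. The paralogue of QPCT on the list, QPCTL, was named after its value was seen. It did not pass, with a log2 fold change of 0.09 (limma adjusted p = 0.457). Among 16 stress and DNA damage regulators linked to NKG2D ligands, 4 rose and 8 fell. The stress kinase EIF2AK3 (1.25 ± 0.08), the RNA sensor RIGI (1.07 ± 0.09), the damage kinase ATM (0.37 ± 0.08) and SP1 (0.34 ± 0.09) rose, and E2F1 (-1.21 ± 0.14), the checkpoint kinase CHEK1 (-0.64 ± 0.10), E2F2 (-0.63 ± 0.13) and CHEK2 (-0.57 ± 0.11) fell most. Calls in these lists are to be read against the 38.1% of all probe sets that passed.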

How the data were processed

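Per the submitters' processing notes, the authors processed the Clariom S arrays with RMA, and the deposited values are log2 probe set signals. Its version and any filter: not given in the sources used here. Scanner files were not used here. Symbols came from the platform annotation and were matched to RefSeq by gene ID, which named 17511 of 18569 probe sets. Where a gene had several probe sets, the one with the highest mean stood for it.

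The 2 groups were fitted in limma 3.58.1 (R 4.3.3; lmFit, eBayes), two-sided, with no covariate or filter, and p-values were adjusted by Benjamini-Hochberg across every probe set. The number of arrays, 5 per group, limits the precision. Pairs of genes were compared with exact permutation tests. Alternatives were dim filters, other scaling, trended variance, array weights, a replicate block and leaving out each array. Scripts were tested on simulated data. Promoter windows were aligned with Biopython 1.88.

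Named genes were the 10 ligands, 4 families, and up to 4 called genes in each direction of 8 other lists, or all where 5 or fewer were counted; marker genes were named to describe the cells. The 10 genes and all lists were chosen with earlier results of these data known. Same-numbered arrays showed no positive correlation of residuals (-0.44 to -0.01), so numbers were not used as pairs.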

Additional observations from a re-analysis of the deposited data

Results flagged for a closer look

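Of 170 groups of 5 arrays (85 named genes in 2 conditions), 8 had 1 array far below the others, and chance alone marks about 1 group in 20 by this measure. Among the 10 ligands, LGALS9 had 2.78 log2 units on control array 1, with the next value at 3.10, and MICA had 5.55 on control array 5, with the next at 5.83. Among the other genes, doxycycline array 1 was low for CADM1 (8.76, next 9.11), LGALS8 (8.13, next 8.56) and CTLA4 (3.61, next 4.62). LGALS12 was low on doxycycline array 2 (2.30, next 2.68), LGALS2 on control array 4 (2.41, next 2.97) and HIF1A on control array 5 (9.25, next 9.51).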

How the results depend on the processing

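The calls of CD274, PDCD1LG2, CD276, NECTIN2 and PVR kept their direction and stayed under the threshold in every fit that tested them, including each fit without 1 array. CD274 and PDCD1LG2 were not tested when probe sets under the median signal were left out, and LGALS9 was absent there too. Without 1 array, log2 fold changes ranged from 0.73 to 0.98 for CD274, 0.79 to 0.98 for PDCD1LG2 and 0.67 to 0.80 for CD276. The ranges were 0.51 to 0.70 for NECTIN2 and -2.40 to -2.20 for PVR. CD274 was lowest with array weights, at 0.68 (limma adjusted p = 0.0086). There doxycycline array 1 had the lowest weight (0.39) and control array 3, which overlapped the doxycycline group for CD274, the highest (1.90). MICA passed among probe sets above the median (0.20, adjusted p = 0.0368), with median centring (0.24, adjusted p = 0.0499) and with quantile normalization (0.26, adjusted p = 0.0330), and without 1 array it ranged from 0.14 to 0.24 and did not pass. Fewer probe sets were tested in the first of these, and why MICA passed in these settings was not tested. The other ligands did not pass in any setting run, and without 1 array ranged from -0.24 to -0.14 for CD47, 0.0012 to 0.13 for LGALS9, 0.14 to 0.29 for MICB and -0.18 to -0.04 for ULBP2. The number of ligands called was 4 to 6 over the alternatives.

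Differences between fold changes were less steady. MICA minus MICB was 0.041 with quantile normalization (adjusted p = 0.929), and without 1 array it ranged from -0.0996 to 0.0768, above 0 without control array 1 or doxycycline array 2 or 5. MICA minus ULBP2 passed with quantile normalization (0.37, adjusted p = 0.0476) and without control array 1 (0.37, adjusted p = 0.0476), in a range of 0.25 to 0.38. CD274 minus PDCD1LG2 ranged from -0.25 to 0.14, above 0 without control array 3 or 4 or doxycycline array 3. CD274 minus CD276 ranged from -0.0096 to 0.27, below 0 without control array 2 or doxycycline array 4. MICB minus ULBP2 ranged from 0.21 to 0.39. Neither CD274 difference, nor MICB minus ULBP2, nor MICA minus MICB, passed in any setting run.

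The replicate number as a block, which the residuals give no ground for, left all 5 ligands called and gave 6476 calls over all probe sets, against 7078 without it. For PVR minus NECTIN2 the block gave -2.93 with an adjusted p of 0.188, because a sign-flip test over 5 numbers cannot go below 0.0625.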

Other observations

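Receptors that meet these ligands were also on the array. Of 17 measured, 10 lay below the 25th percentile of signal, 3 rose and 2 fell, where 20.9% of all probe sets rose and 17.2% fell. CTLA4, an inhibitory T cell receptor, averaged 4.50 ± 0.50 log2 units with doxycycline and 2.76 ± 0.22 in control (SD, n = 5 each), a log2 fold change of 1.73 ± 0.20 (limma adjusted p = 4.54e-06), with doxycycline array 1 at 3.61. PVRIG, a receptor of NECTIN2 (0.46), and NCR2 (0.32) rose and SIRPA, the receptor of CD47 (-0.26), and KLRD1 (-0.22) fell. NCR2 and KLRD1 are among the 10 dim ones, KLRD1 at 1.28 ± 0.07 log2 units with doxycycline and 1.49 ± 0.11 in control (SD, n = 5 each), near the lowest value of any probe set on the arrays, 1.14. CD96, a receptor of PVR, did not pass (0.13, limma adjusted p = 0.232), and its probe set was bright, at 10.8 ± 0.11 log2 units with doxycycline and 10.7 ± 0.08 in control (SD, n = 5 each). CD96 was named after its value was seen, and whether this signal comes from CD96 transcript was not tested.

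Neighbouring genes were counted from the RefSeq gene order, 5 measured genes on each side. Of 75 neighbours, each counted once, 22 rose and 13 fell, against 38.1% of all probe sets called. Around CD274 and PDCD1LG2, RIC1 (0.76), BRD10 (0.59), RANBP6 (0.38) and INSL4 (0.30) rose and PLGRKT (-0.43) fell. The groups of INSL4 and of PLGRKT overlapped, and INSL4 was dim, at 2.34 log2 units with doxycycline and 2.04 in control. Between PVR and NECTIN2, BCAM rose (0.94) and CEACAM19 fell (-0.85). Beside ULBP2, 5 of 10 neighbours fell and none rose, where 17.2% of all probe sets fell and 20.9% rose. Those that fell were ULBP3, PPP1R14C (-0.77), LRP11 (-0.76), RAET1L and NUP43 (-0.24). ULBP3 and RAET1L are related in sequence to ULBP2, and shared hybridisation was not tested.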
